A study of Mus musculus with 6 samples.

Results

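Ly6c2, Ccr2, Vcam1 and Apoe are 4 of the 9295 genes in a bulk RNA table from leukemic mouse marrow. They were taken by symbol, and they were chosen from the contrast itself, because their counts were high in the knockout libraries. The difference of these 4 genes between the groups is therefore given as a description, with no test. The samples were 3 bone marrow libraries with the genotype PAPOLA flox/flox, named Con, and 3 with the genotype PAPOLA KO, named KO, from a mouse model of acute myeloid leukemia. All 6 are labelled as leukemia in cell type. The labels name no marker of the leukemic cells, no sort, age, sex, batch or strain, and neither how the leukemia was started nor what deleted Papola. They do not say that libraries of a group came from separate animals, so the p-values below measure the spread between these libraries, which may be technical. Values per library are given in the order of replicates 1, 2 and 3, and a value after ± is the SD over the n = 3 libraries of a group. "Rose" and "fell" are used only of genes with an adjusted p under 0.05 in edgeR.

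Ly6c2 encodes Ly6C2, a small GPI-anchored surface protein by which mouse classical monocytes are sorted. Ccr2 encodes the receptor through which those monocytes leave the marrow and follow the chemokines CCL2, CCL7 and CCL12. Vcam1 encodes an adhesion molecule that binds the integrin VLA-4. In marrow it is carried by stromal and endothelial cells and by the resident macrophages at the centre of erythroblast islands. Apoe encodes apolipoprotein E, a secreted lipid carrier made in quantity by tissue macrophages, whose gene is a target of the liver X receptors.

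The counts summed to 11253932 to 11436216 in the Con libraries and to 8875022 to 9768143 in the KO libraries. Papola (gene ID 18789), the targeted gene, had 3751, 3779 and 3642 counts in the Con libraries, against 2928, 2929 and 2440 in the KO libraries. In CPM, counts scaled to a common library size with TMM factors, Con averaged 291 ± 6.42 and KO 339 ± 23.8, a log2 fold change of 0.22 (SE 0.08; edgeR, adjusted p = 0.0291). Scaling by totals alone turned the sign (-0.13), and the call was lost when any library other than KO replicate 3 was left out (edgeR, adjusted p 0.0614 to 0.0814). The gene count does not look at the deleted exons alone, so it does not check the labels, and every direction below is that of the libraries labelled KO against those labelled Con. Con replicates 2 and 3 stood much closer to each other than other pairs, with a chi-square per degree of freedom of 1.63 against 16.3 to 21.8 for the other 5 pairs within a group, though they still differed by more than counting noise. Of 8358 genes tested, 3310 were higher and 3544 lower in KO at an adjusted p of 0.05, or 2488 and 4476 when scaled by totals alone.

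Ly6c2 has a close copy near it, and the sequences that separate the copies are shown because they bear on what a count can mean. Ly6c2 lies on the minus strand at chr15:75108158-75111970 and Ly6c1 at chr15:75044018-75048830 (GENCODE M21, GRCm38). Their coding sequences were identical at 387 of 396 bases (97.7%), and 46.7% of the 50-base windows of the Ly6c2 coding sequence occurred unchanged in that of Ly6c1. The stretch of 60 coding bases in which they differ most, from coding base 6 to 65, holds 6 of the 9 mismatches, in capitals.
Ly6c2: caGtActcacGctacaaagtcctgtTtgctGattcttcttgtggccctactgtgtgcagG
Ly6c1: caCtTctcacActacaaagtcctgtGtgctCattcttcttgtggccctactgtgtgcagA

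Ccr2 lies on the plus strand at chr9:124101950-124113557, Vcam1 lies on the minus strand at chr3:116109949-116129688, and Apoe on the minus strand at chr7:19696109-19699188.

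Ly6c2 (gene ID 100041546) had the smallest gap of the 4. Its estimated counts were 1578.93, 1907.91 and 1960.85 in the Con libraries, against 10023.2, 10414.67 and 10022.55 in the KO libraries, or 120, 150 and 157 CPM against 1171, 1285 and 1290 CPM. Con replicate 1 was the lowest library, the KO libraries lay within 1.1-fold of each other, and the groups did not overlap. Con averaged 142 ± 19.8 CPM and KO 1249 ± 67.0 CPM, a log2 fold change of 3.14 (SE 0.12).

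Ccr2 (12772) had 327, 349 and 325 counts in the Con libraries, against 2710, 2476 and 2847 in the KO libraries. On the CPM scale these were 24.8, 27.4 and 26.0 against 317, 305 and 366. It was the gene with the tightest Con values of the 4, and the lowest KO library was 11.1-fold above the highest Con library. The group levels were 26.1 ± 1.33 and 329 ± 32.4 CPM, a log2 fold change of 3.66 (SE 0.10).

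Vcam1 (22329) had 255, 275 and 264 counts in the Con libraries, against 3666, 5028 and 4476 in the KO libraries. The levels were 19.3, 21.6 and 21.1 CPM against 428, 620 and 576 CPM. KO replicate 1 was clearly the lowest of its group, still 19.8-fold above the highest Con library. The group levels were 20.7 ± 1.21 and 542 ± 100.5 CPM, a log2 fold change of 4.71 (SE 0.16).

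Apoe (11816) had the fewest Con counts and the widest gap. It had 109, 82 and 83 counts in the Con libraries, against 4441, 5867 and 5491 in the KO libraries, or 8.26, 6.44 and 6.64 CPM against 519, 724 and 707 CPM. KO replicate 1 was again the lowest of its group, while Con replicate 1 was the highest of the other, and the lowest KO library was 62.8-fold above the highest Con library. The group levels were 7.11 ± 0.996 and 650 ± 114 CPM, a log2 fold change of 6.51 (SE 0.18), and only 1.41% of the genes tested had a higher one.

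All 4 genes were free of overlap between the groups and higher in KO, as were 40.5% of all genes tested, and since the genes were picked for this, nothing is read from the count. Together they held 0.0201% to 0.0234% of the counts in Con libraries and 0.213% to 0.264% in KO libraries. Over 15 other settings their log2 fold changes stayed within 2.78 to 3.23 for Ly6c2, 3.30 to 3.71 for Ccr2, 4.36 to 4.85 for Vcam1 and 6.15 to 6.65 for Apoe. In bulk RNA, fewer or more cells of a type and less or more RNA per cell cannot be told apart.

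**Figure D1:**
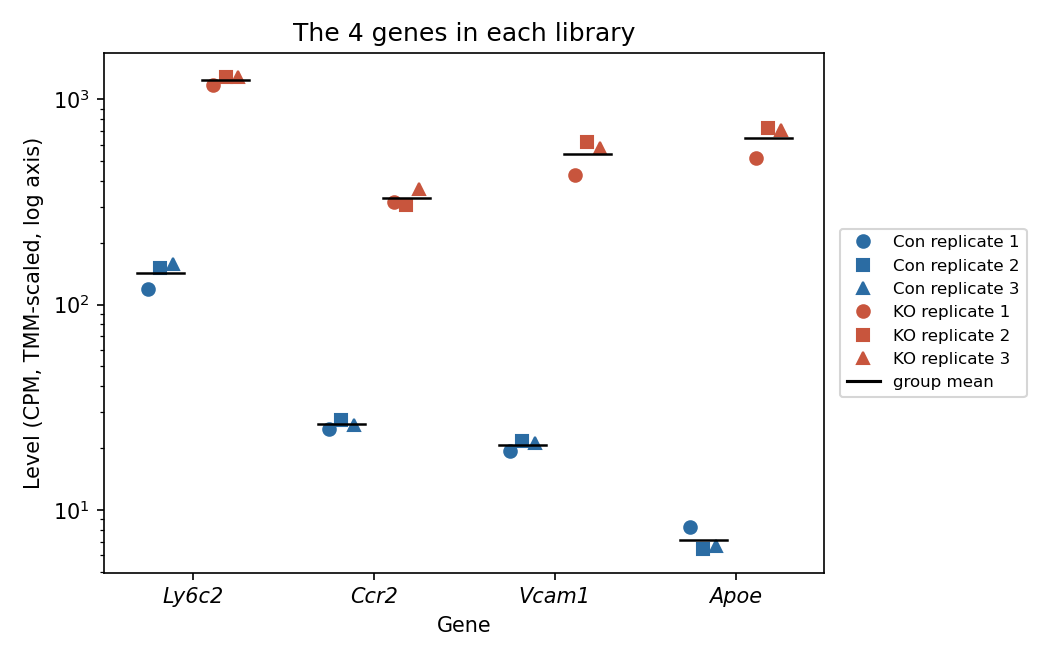
Level of Ly6c2, Ccr2, Vcam1 and Apoe in each of the 6 libraries, in TMM-scaled CPM on a log axis, with symbols for replicates and black lines for group means. The KO libraries of each gene lie above its Con libraries, and KO replicate 1 is the lowest of its group for Vcam1 (428 CPM) and Apoe (519 CPM).

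Per kilobase of transcript the order of the 4 genes differed between the groups. The lengths used were those of a single protein-coding GENCODE transcript per gene (822 bases for Ly6c2, 2999 for Ccr2, 3469 for Vcam1 and 1128 for Apoe), and another transcript would shift a gene's place. In Con, Ly6c2 stood at 173 ± 24.1 CPM per kilobase, followed by Ccr2 at 8.69 ± 0.443, Apoe at 6.31 ± 0.883 and Vcam1 at 5.96 ± 0.348. The ranges of Apoe and Vcam1 overlapped, so these neighbours did not differ beyond their spread. In KO, Ly6c2 stood at 1519 ± 81.5 CPM per kilobase, Apoe at 576 ± 100.7, Vcam1 at 156 ± 29.0 and Ccr2 at 109.9 ± 10.8. The lowest Vcam1 value there (123 CPM per kilobase) and the highest Ccr2 value (122) almost touched, while Apoe lay clear of both. The ratio of Apoe to Vcam1 counts was 0.427, 0.298 and 0.314 in the Con libraries, against 1.21, 1.17 and 1.23 in the KO libraries.

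**Figure D2:**
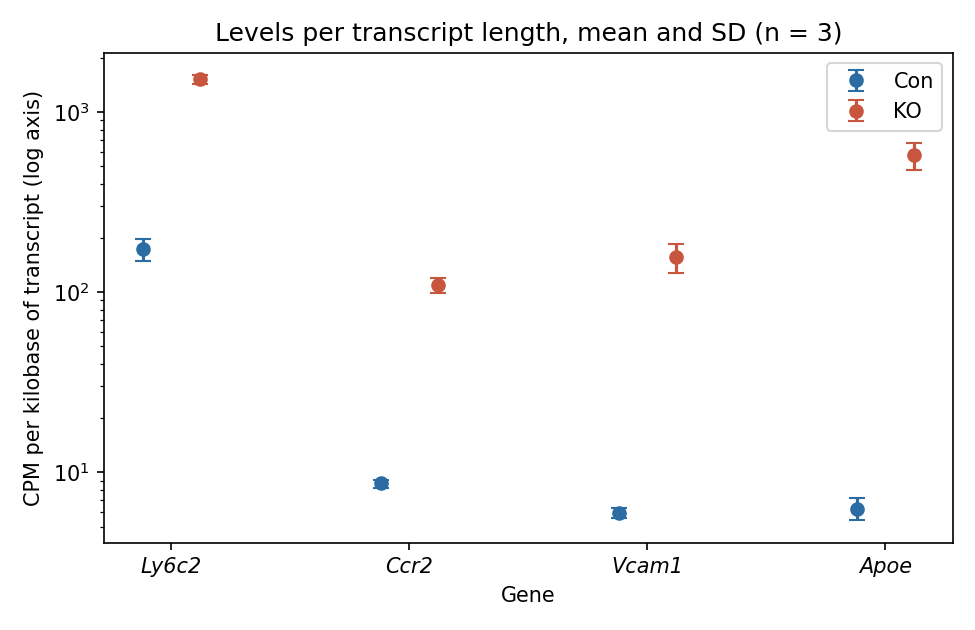
Levels of the 4 genes in CPM per kilobase of transcript on a log axis, as group means with SD (n = 3 libraries each), Con in blue and KO in red. Apoe and Vcam1 lie at 6.31 and 5.96 in Con, and at 576 and 156 in KO.

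Ly6c1, the near-identical copy of Ly6c2, was higher in KO as well, and other genes of the Ly6 family did not share a direction. Ly6c1 counts were 80.07, 81.09 and 94.15 in the Con libraries, against 481.63, 513.57 and 559.45 in the KO libraries, a log2 fold change of 3.26 (SE 0.14; edgeR, adjusted p = 4.11e-08). The ratio of Ly6c2 to Ly6c1 counts was 19.7, 23.5 and 20.8 in the Con libraries, against 20.8, 20.3 and 17.9 in the KO libraries, so the ranges of the groups overlapped. The decimals in both genes' counts show that reads were divided by estimate, and the value of each copy alone is uncertain. Ly6a, which encodes the stem cell antigen Sca-1, went the other way, from 154 ± 3.70 to 44.4 ± 7.29 CPM (-1.80, SE 0.11; edgeR, adjusted p = 5.02e-07). Ly6g, the neutrophil surface marker, rose from 0.413 ± 0.263 to 526 ± 91.9 CPM (10.26, SE 0.27; edgeR, adjusted p = 5.61e-09). Gpihbp1, the endothelial anchor of lipoprotein lipase, had 2 counts over the Con libraries and 112 over the KO libraries, a ratio of 88.1 (95% counting interval 23.8 to 736). Of 16 Ly6 family genes listed, 6 were in the table and 5 were tested, of which 3 rose and 1 fell. Over all genes tested, 39.6% were higher and 42.4% were lower at an adjusted p of 0.05, with a median log2 fold change of -0.06. Scaled by totals alone, 2 of the 5 fell.

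Other genes of classical monocytes were higher in KO along with Ly6c2 and Ccr2. Of 15 listed, 11 were tested, and 10 rose (median log2 fold change 2.75, against -0.06 for all genes tested, of which 39.6% rose). F13a1, the A subunit of coagulation factor XIII, rose from 20.7 ± 3.16 to 688 ± 108 CPM (5.05, SE 0.16; edgeR, adjusted p = 1.03e-08). Ms4a6c rose by 2.75 (SE 0.17) and Plac8 by 1.46 (SE 0.10). The gene of this list that did not pass, S100a4, named after its value was seen, was at 231 ± 44.0 CPM in Con and 252 ± 67.1 CPM in KO.

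Among genes of the patrolling, Ly6C-low monocytes, 7 of 9 tested rose and 2 fell (median 2.16), where 39.6% and 42.4% of all genes tested did. Adgre4 went from 3, 2 and 0 counts in the Con libraries to 317, 374 and 448 in the KO libraries (log2 fold change 8.37, SE 0.37; edgeR, adjusted p = 5.49e-08). Treml4 rose by 4.26 (SE 0.24), Cx3cr1, the fractalkine receptor, by 2.16 (SE 0.15), and Nr4a1, the nuclear receptor these cells need, by 4.91 (SE 0.33). Those that fell, named after seeing their values, were the scavenger receptor gene Cd36 (-3.35, SE 0.27) and Pou2f2 (-0.88, SE 0.11). Both kinds of monocyte gene were thus mostly higher. The KO libraries were uneven for the patrolling list, whose summed level was 951, 914 and 1588 CPM in them. KO replicate 3 was the highest for 8 of the 9 genes, against 3262 of all 8358 genes tested. Nr4a1 was at 324.5, 368 and 741 CPM in the KO libraries.

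Transcription factors of the lineage had 9 of 11 members higher and 2 lower (median 1.62), where 39.6% and 42.4% of all genes tested were. Spi1, which encodes PU.1, was at 167, 185 and 193 CPM in the Con libraries and rose to 593, 543 and 541 CPM in KO (1.62, SE 0.09; edgeR, adjusted p = 1.98e-07). Irf8, needed for monocyte and dendritic cell progenitors, rose from 64.0 ± 0.590 to 354 ± 60.4 CPM (2.47, SE 0.12; edgeR, adjusted p = 1.15e-07). Klf4, a factor of Ly6C-high monocytes, rose by 1.53 (SE 0.23). The 2 lower ones, named after their values were seen, were Zeb2 (-0.72, SE 0.16) and Batf3 (-2.39, SE 0.33), a factor of cross-presenting dendritic cells.

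**Figure D3:**
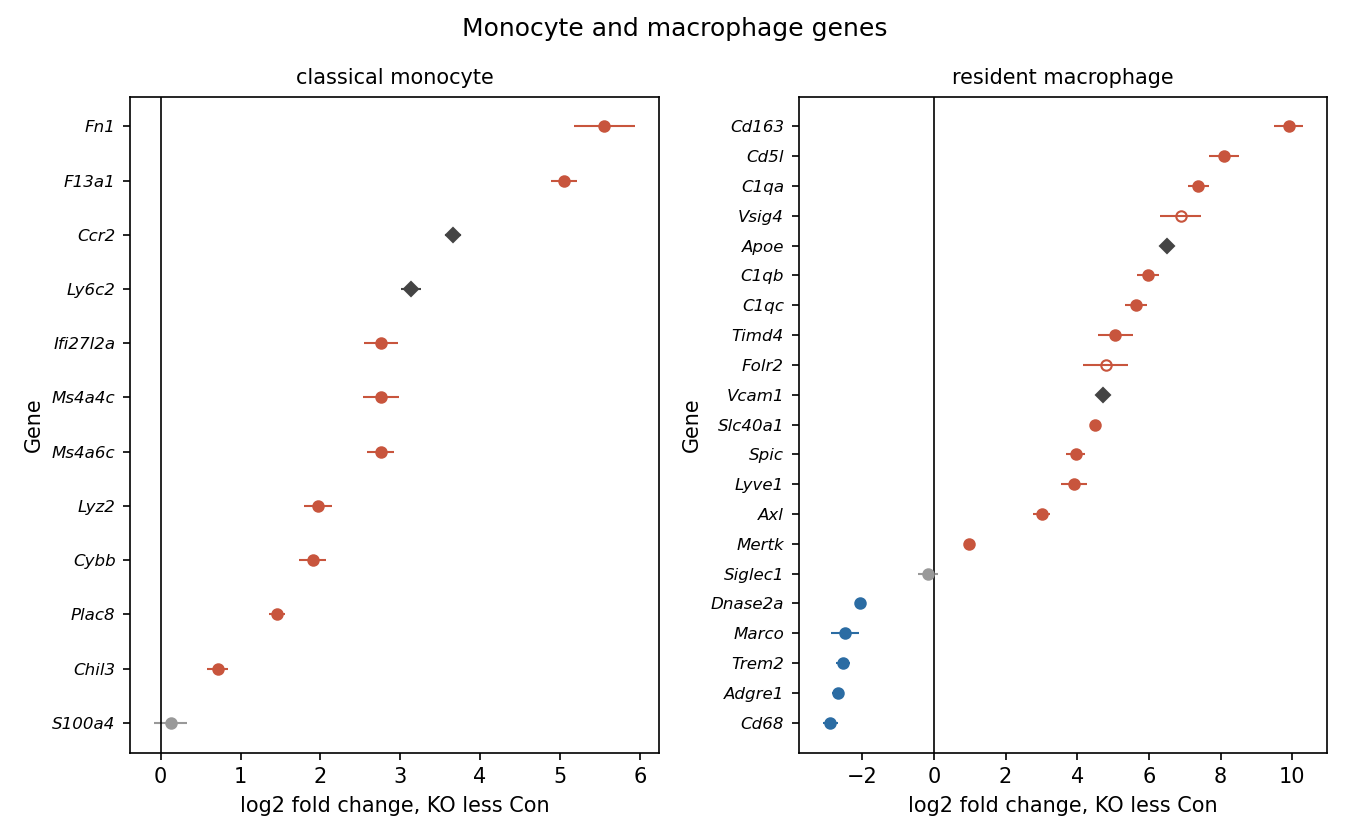
Log2 fold change (KO less Con) with SE of tested classical monocyte genes (left, with Ly6c2 and Ccr2 as black diamonds) and resident macrophage genes (right, with Vcam1 and Apoe as black diamonds). Red and blue points passed an adjusted p of 0.05, grey points did not, and open points have 1 to 3 counts over Con. In the left panel F13a1 lies at 5.05 and Plac8 at 1.46, and the right panel splits into 13 higher and 5 lower genes.

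The genes for the CCR2 ligands CCL2, CCL7 and CCL12 were lower in KO, opposite to the receptor. Ccl2 (20296), its main ligand, had 24553, 33178 and 34040 counts in the Con libraries, against 87, 118 and 90 in the KO libraries, or 2396.5 ± 468 against 12.1 ± 2.24 CPM (-7.63, SE 0.22; edgeR, adjusted p = 6.55e-09). Ccl7 had 7455, 11510 and 10695 counts in the Con libraries, against 8, 7 and 2 in the KO libraries (-10.10, SE 0.32; edgeR, adjusted p = 1.91e-08). Ccl12 fell by 6.17 (SE 0.49), from 30.4 ± 11.5 to 0.402 ± 0.259 CPM. Con replicate 1 was the lowest Con library for each of these 3 ligands. Ccl8, a chemokine gene listed with them, did not pass, at 10.3 ± 2.14 CPM in Con and 13.3 ± 7.57 CPM in KO (0.36, SE 0.35; edgeR, adjusted p = 0.359). Its sign turned without KO replicate 2 (-0.21). The number of Ccl2 counts per Ccr2 count was 75.1, 95.1 and 104.7 in the Con libraries, against 0.0321, 0.0477 and 0.0316 in the KO libraries.

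Of the 14 genes listed around CCR2, 11 were tested, and 4 rose and 5 fell (median -0.10). Over all genes tested, 39.6% rose and 42.4% fell, so nothing is read from these counts. Arrb2, beta-arrestin 2, which desensitises chemokine receptors, rose from 204 ± 4.54 to 983 ± 108 CPM (2.27, SE 0.10; edgeR, adjusted p = 5.32e-08). The other 3 that rose, named after their values were seen, were the receptor kinase gene Grk2 (1.82, SE 0.09), the G protein gene Gnai2 (1.32, SE 0.08) and Cxcr4 (2.23, SE 0.11), the receptor that holds cells in marrow. Beside Ccl2, Ccl7 and Ccl12, the atypical receptor gene Ccrl2 fell (-0.60, SE 0.17), also named after its value was seen.

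**Figure D4:**
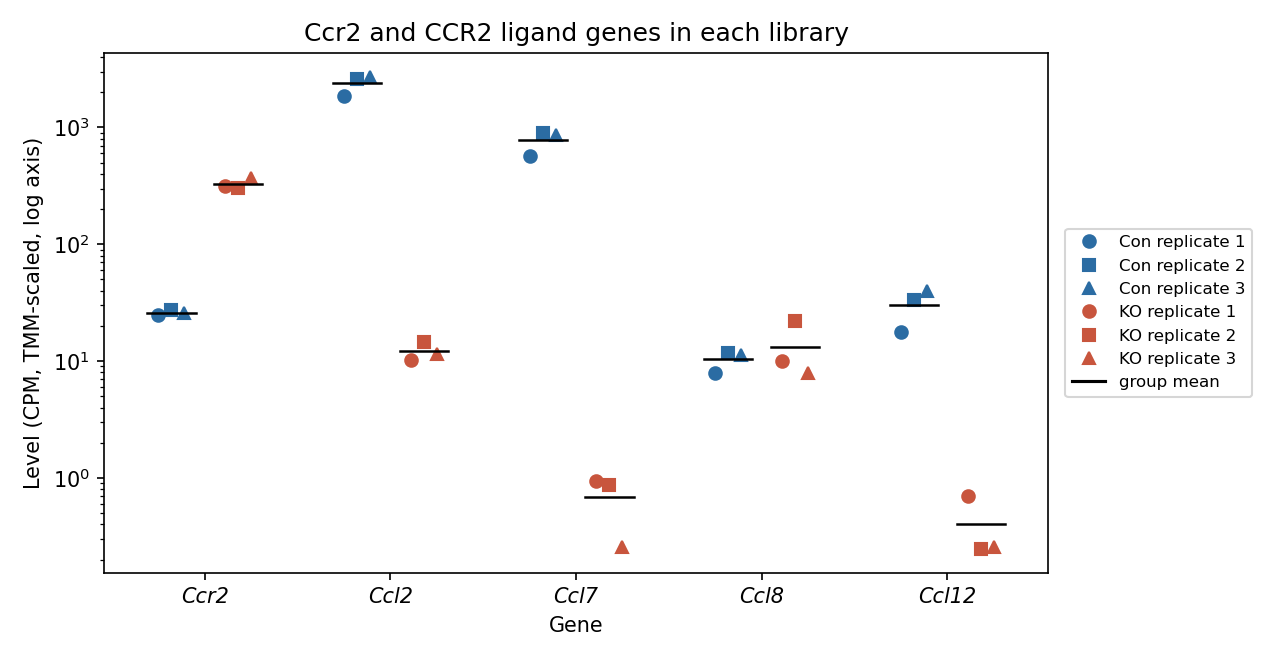
Levels of Ccr2 and the chemokine genes Ccl2, Ccl7, Ccl8 and Ccl12 in each library, in TMM-scaled CPM on a log axis, with black lines for group means. Ccr2 is higher in KO (329 against 26.1 CPM), Ccl2, Ccl7 and Ccl12 are lower, and the groups overlap for Ccl8.

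Resident macrophage genes split in direction. Of 24 listed, 19 were tested, and 13 rose and 5 fell (median 3.95), where 39.6% and 42.4% of all genes tested did. Slc40a1, the iron exporter ferroportin, rose from 17.9 ± 2.37 to 407 ± 19.4 CPM (4.51, SE 0.12; edgeR, adjusted p = 3.98e-09). C1qa, a chain of complement C1q, had 16 counts in each Con library and 1223, 2211 and 1674 in the KO libraries (7.38, SE 0.31; edgeR, adjusted p = 7.16e-08). Cd163, the haemoglobin scavenger receptor, had 4 counts over the Con libraries and 652, 918 and 1106 in the KO libraries (9.90, SE 0.42; edgeR, adjusted p = 7.77e-08). Spic, the transcription factor of red pulp and marrow iron-recycling macrophages, rose from 4.17 ± 0.204 to 64.7 ± 22.1 CPM (3.95, SE 0.27; edgeR, adjusted p = 1.2e-06).

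The 5 that fell were Dnase2a (-2.07, SE 0.10), the nuclease with which macrophages digest engulfed nuclei, and 4 named after their values were seen. These were Adgre1, the F4/80 antigen (-2.67, SE 0.17), Cd68, a lysosomal glycoprotein (-2.89, SE 0.21), the lipid receptor gene Trem2 (-2.53, SE 0.20) and the scavenger receptor gene Marco (-2.48, SE 0.39). In Con, Cd68 was at 1328 ± 184 CPM and Adgre1 at 945 ± 119 CPM, and in KO at 179 ± 49.8 and 149 ± 31.7 CPM. The number of Vcam1 counts per Adgre1 count was 0.0210 to 0.0239 in the Con libraries and 3.53 to 3.80 in the KO libraries. Summed over the list, the level was 2238 to 2869 CPM in Con and 1773 to 3047 CPM in KO, so the total overlapped although its members moved apart.

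Among the KO libraries, most resident macrophage genes, and most genes of several other lists, had the same lowest library as Vcam1 and Apoe, a measure the choice of the 4 genes did not use. KO replicate 1 was the lowest for Vcam1, Apoe and Ly6c2, and for 16 of the 19 resident macrophage genes, while it was the lowest for 32.5% of all genes tested. Other lists shared this, with KO replicate 1 lowest for 7 of 7 B cell markers, 9 of 11 transcription factors, 9 of 11 genes around VCAM1, 11 of 14 around APOE and 6 of 11 erythroid markers. Further lists did not, with 1 of 7 stromal and endothelial markers and 2 of 8 T and NK cell markers lowest there. The same held for genes around CCR2 (3 of 11) and dendritic cell markers (2 of 6). KO replicate 2 exceeded KO replicate 1 by 2.53-fold for Cd5l, by 1.91-fold for C1qa and by 2.01-fold for Spic, and the highest KO library exceeded the lowest by 1.45-fold for Vcam1 and 1.39-fold for Apoe. Slc40a1 did not share this, with 410, 425 and 387 CPM in the KO libraries. Genes that were lower in KO shared it, with 4 of 5 lowest in KO replicate 1. Ccr2 was lowest in KO replicate 2. The summed erythroid markers were lowest in KO replicate 1 too (17416 CPM against 24272 and 24514), and the summed neutrophil markers, none of which was lowest there, were highest (198570 CPM against 178043 and 171836). With 3 libraries this is a description.

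Markers of several other cell types were higher in KO along with the 4 genes. For the counts below, 39.6% of all genes tested rose and 42.4% fell. Of the 15 neutrophil markers all rose, from a summed 2778 to 2973 CPM in Con to 171836 to 198570 CPM in KO, and of 11 erythroid markers tested, 10 rose and 1 fell, from 532 to 608 CPM to 17416 to 24514 CPM. The stromal and endothelial markers bear on Vcam1, which those cells also express. Of 13 listed, 7 were in the table, and all 7 rose, from a summed 9.70 to 15.7 CPM in Con to 255 to 476 CPM in KO, with Sele at 0 in every Con library. Among them Stab2, a scavenger receptor of sinusoidal endothelium, rose from 0.130 ± 0.164 to 58.2 ± 5.08 CPM (8.68, SE 0.31), and Cdh5, VE-cadherin, by 4.57 (SE 0.23). Genes outside this list that endothelial cells also express went the other way. Pecam1 (-2.23, SE 0.11), Icam1 (-1.63, SE 0.20) and Selp (-0.72, SE 0.11) fell, the last 2 named after their values were seen. T and NK cell markers (8 of 8 rose) summed to 3.76 to 9.01 CPM in Con and 107 to 139 CPM in KO, with Ncr1 at 0 in every Con library. B cell markers (5 of 7 rose) summed to 44.4 to 76.4 CPM in Con and 97.3 to 283 CPM in KO, with Vpreb2 at 0 in every Con library. Dendritic cell markers were split, with 3 of 6 higher and 2 lower. Siglech rose from 0.258 ± 0.111 to 147 ± 35.9 CPM (9.08, SE 0.30) and Clec9a by 2.85 (SE 0.27). Bst2 fell from 280 ± 18.6 to 106 ± 20.7 CPM, and Ccr7 from 71.3 ± 20.5 to 7.78 ± 2.64 CPM. The dendritic sums, 358 to 375 CPM in Con and 306 to 456 CPM in KO, overlapped. The part of any of these cells in the levels of Ly6c2, Ccr2, Vcam1 and Apoe was not tested.

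The integrin partners of VCAM1 did not follow it as a group. Itga4, the alpha chain of VLA-4, was at 118 ± 6.16 CPM in Con and 180 ± 41.5 CPM in KO (0.61, SE 0.15; edgeR, adjusted p = 0.00339), a call lost when scaled by totals alone (0.25; edgeR, adjusted p = 0.124). Itgb1, the beta chain of VLA-4, fell from 572 ± 30.8 to 234 ± 17.3 CPM (-1.29, SE 0.09; edgeR, adjusted p = 8.19e-07). Itgb7, the other beta chain that pairs with it, did not pass, at 127 ± 3.96 and 165 ± 43.2 CPM (0.37, SE 0.16; edgeR, adjusted p = 0.0568), but passed without KO replicate 1 (0.51; edgeR, adjusted p = 0.00766). Itga9, a further VCAM1-binding alpha chain, rose from 1.69 ± 0.173 to 14.6 ± 1.99 CPM (3.09, SE 0.20; edgeR, adjusted p = 5.36e-07).

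Adhesion genes around VCAM1 moved in both directions. Of 14 listed, the integrins above included, 11 were tested, and 4 rose and 6 fell (median -0.35), where 39.6% and 42.4% of all genes tested did. Adam17, the sheddase that releases VCAM1 from the cell surface, fell from 270 ± 11.5 to 79.5 ± 0.957 CPM (-1.77, SE 0.08; edgeR, adjusted p = 4.76e-08). Pecam1 fell from 371 ± 5.27 to 79.3 ± 12.7 CPM (-2.23, SE 0.11; edgeR, adjusted p = 1.3e-07). Icam1, the adhesion molecule often described beside VCAM1 and named after its value was seen, fell by 1.63 (SE 0.20). Sele, E-selectin, had no count in Con and 121, 120 and 143 in the KO libraries, at least 201.3-fold higher, with 3 counts over the 3 Con libraries taken as the floor. Itgad, the alpha D integrin chain of splenic and marrow macrophages, named after its value was seen, had 1 count over Con and was 554-fold higher (95% counting interval 98.7 to 21928).

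The genes around APOE moved in both directions. Vldlr, Lrp8 and Lrp1, receptor genes for particles that carry APOE, fell. Vldlr went from 32.6 ± 2.31 to 1.96 ± 0.437 CPM (-4.05, SE 0.18; edgeR, adjusted p = 4.92e-08) and Lrp8, the apolipoprotein E receptor 2, from 126 ± 3.16 to 42.9 ± 1.35 CPM (-1.56, SE 0.08; edgeR, adjusted p = 1.09e-07). Lrp1 (-2.13, SE 0.16), named after its value was seen, was lower too. Sorl1, a sorting receptor that also binds APOE, rose from 143 ± 13.6 to 795 ± 119 CPM (2.48, SE 0.13; edgeR, adjusted p = 1.54e-07).

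Apoc2, from the same gene cluster as Apoe and the activator of lipoprotein lipase, rose from 2.89 ± 0.157 to 20.3 ± 1.13 CPM (2.80, SE 0.15; edgeR, adjusted p = 1.8e-07). Its counts were 40, 37 and 34 in the Con libraries, against 165, 162 and 167 in the KO libraries. The ratio of Apoe to Apoc2 counts went from 2.22 to 2.73 in Con to 26.9 to 36.2 in KO. Nr1h3, which encodes the liver X receptor alpha, rose from 9.48 ± 1.65 to 32.4 ± 5.02 CPM (1.77, SE 0.17; edgeR, adjusted p = 7.26e-06). Mylip, a known target of that receptor, named after its value was seen, rose by 2.04 (SE 0.17). It was picked from a list in which Lpl fell (-2.16, SE 0.24) and Pltp did not pass (0.28, SE 0.13; edgeR, adjusted p = 0.0825). Both were also named after their values were seen. Abca1, the cholesterol efflux pump and another target of liver X receptor alpha, was at 43.0 ± 5.70 CPM in Con and 31.7 ± 6.09 CPM in KO. Its groups overlapped (-0.44, SE 0.15; edgeR, adjusted p = 0.0214). That call was lost in 4 of the 6 fits that leave out a library (those without Con replicate 2, Con replicate 3, KO replicate 1 or KO replicate 2, adjusted p 0.0704 to 0.0851). Of 21 genes listed around APOE, 14 were tested, and 4 rose and 9 fell (median -1.40), where 39.6% and 42.4% of all genes tested did. Lower as well, and named once their values were known, were Npc1 (-2.66), Lipa (-1.25) and Trem2.

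**Figure D5:**
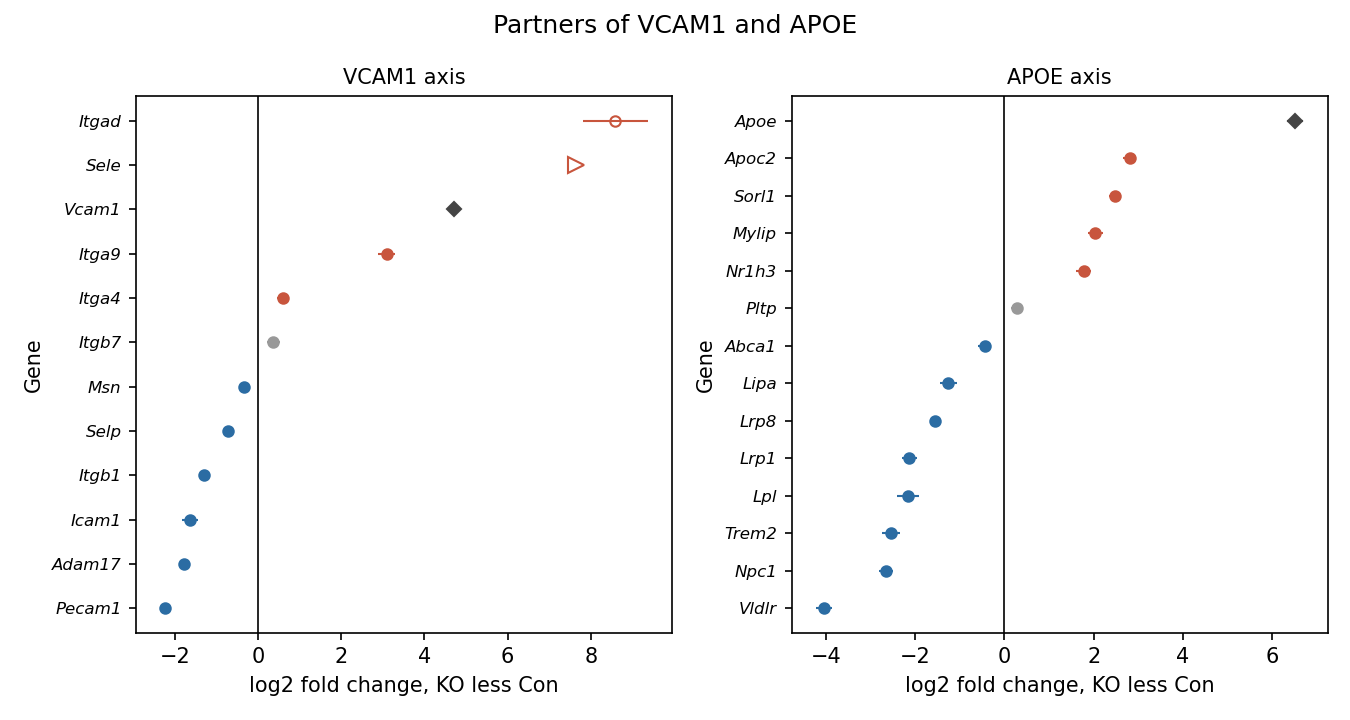
Log2 fold change (KO less Con) with SE of tested genes around VCAM1 (left) and APOE (right), with Vcam1 and Apoe as black diamonds. Red and blue points passed an adjusted p of 0.05, grey ones did not, the open circle has 1 count over Con, and the open triangle is the lower bound of Sele. Vcam1 at 4.71 lies above Itga9 at 3.09, and Apoe at 6.51 lies above every other gene in its panel.

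The genes whose pattern over the 6 libraries was most like each of the 4 were found by the root mean square (RMS) difference of gene-centred log2 CPM, in which the gap between the groups weighs most. Nearest to Ly6c2 were Heph, a ferroxidase (RMS 0.10), Tifab (0.11) and its own copy Ly6c1 (0.11). Nearest to Ccr2 were Ramp1, a partner of the calcitonin-receptor-like receptor (0.09), Map3k15 (0.09) and AB124611 (0.10). Nearest to Vcam1 were the iron exporter gene Slc40a1 (0.20), Dnah6 (0.21) and Vsig4, a complement receptor of tissue macrophages (0.22). Nearest to Apoe were Sele (0.17), Ipcef1 (0.21) and Upb1 (0.22). Upb1 had 2 counts over Con, Vsig4 1 and Sele none, so the places of these 3 genes rest on the prior count of 2. Dnah6 and Heph, at 0.391 ± 0.0108 and 0.497 ± 0.132 CPM in Con, were low enough for that prior to weigh on their places too. Within an RMS of 0.25 there were 85 genes around Ly6c2 and 60 around Ccr2, but 8 around Vcam1 and 4 around Apoe.

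Promoter windows from RefSeq (GRCm38.p6; 250 bases before to 50 after a start site) were used for Ly6c2, Ccr2 and Apoe, 6 windows in all, and short stretches are shown because PU.1 and IRF8, whose genes rose, bind letters of this kind. Of 6 motifs searched on both strands, GAGGAA (PU.1) was found in 4 of the 6 windows and in 28.3% of 32851 windows of all genes, and GAAANNGAA (IRF) in 2 of the 6 and in 8.56%. TTGCNNAA (C/EBP), TGANTCA (AP-1), GGGANTTCC (NF-kB) and GGGCGG (Sp and Klf) were in none of the 6, and in 10.8%, 7.81%, 1.68% and 35.7% of all windows. The 4 windows with GAGGAA belonged to Ly6c2 and Apoe, and the 2 with GAAANNGAA to Ccr2 and Apoe. Windows of the same gene can overlap, and both Ly6c2 windows held the same 2 GAGGAA matches. The 6 windows are therefore not independent, and their share is not read against that of all genes. No window was available for Vcam1. A match is a description of letters, not of binding. The stretches of 30 bases below are written along the gene's strand with the match in capitals, that of Ccr2 being on the opposite strand. They lie at chr15:75112062-75112091 (Ly6c2, minus strand, position -108 from the start site of its first window), chr9:124102087-124102116 (Ccr2, plus strand, position -86) and chr7:19699291-19699320 (Apoe, minus strand, position -122). The Ccr2 stretch lies inside the GENCODE span of the gene given above, as the RefSeq and GENCODE starts differ.
Ly6c2: catgttggccctGAGGAAgtaagaaccaaa
Ccr2: tatctccgccTTCTCTTTCtgcaggaaact
Apoe: accccgcgggGAAAGGGAAggagcggttct

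A second match of Ly6c2 lies at chr15:75111928-75111957, and the like stretch of Ly6c1 at chr15:75048773-75048802, both on the minus strand. Both were found by the same search for GAGGAA, so the identity of the matched letters is not a result.
Ly6c2: aacctggtcagaGAGGAAgtaaggactggt
Ly6c1: aaccttgtctgaGAGGAAgtaaggactggt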

How the data were processed

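The authors deposited a table of estimated counts per gene, not scaled, per the file headers. Of its 9295 genes, 1449 (15.6%) have a count that is not whole, so counts were rounded before tests. RNA was extracted with TRIzol, per the labels' protocols; for aligner and counter, nothing is given in the sources used here. GRCh38, a human build, stands in the submitters' processing notes, while the gene IDs are mouse. All 6 columns were matched by name, and 0 were left unused. Groups were compared with edgeR 4.0.16 in R 4.3.3 (TMM, filterByExpr, robust quasi-likelihood test, two-sided, no covariate), with Benjamini-Hochberg adjustment over 8358 genes and a threshold of 0.05. The code was tested on simulated data. CPM values use TMM-scaled library sizes. At totals of about this depth, levels under 1 CPM rest on few counts, and counting intervals and floors cover counting error only. Alternatives were DESeq2 1.42.0, voom of limma 3.58.1, other scalings and filters, left-out libraries, Con replicates 2 and 3 summed, and a replicate block. The 4 genes and all lists were chosen with earlier results of these data known. Named genes are the 4, Papola, direct partners, the 4 smallest p-values of each list and the 3 genes most like each of the 4, and others are said to be named after their values were seen. Coding sequences were aligned with Biopython 1.88. Some listed genes count in the list totals and are not reported here by name.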

Additional observations from a re-analysis of the deposited data

How the results depend on the processing

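Over 15 other settings, the direction of all 4 genes was the same, and 325 of 330 values (the 4 fold changes, the counts of all genes and the counts per list) stayed within the spread between replicates or, for counts, within 1.5 times. The exceptions all came with library size as the only scaling, which moved the median of all log2 fold changes by -0.35. It gave log2 fold changes of 2.78 for Ly6c2, 3.30 for Ccr2, 4.36 for Vcam1 and 6.15 for Apoe, and 2 lower Ly6 family genes in place of 1. Its share of higher genes among those that passed was 35.7%, against 48.3%. Leaving out each library in turn gave 3.04 to 3.23 for Ly6c2, 3.58 to 3.71 for Ccr2, 4.60 to 4.85 for Vcam1 and 6.42 to 6.65 for Apoe, with 3205 to 3316 higher and 3280 to 3552 lower genes. With Con replicates 2 and 3 summed as 1 sample, 3201 genes were higher and 3356 lower. Among 74 other genes named by the rule, signs turned only for Papola with library size only (-0.13, adjusted p = 0.187 in edgeR) and for Ccl8 without KO replicate 2 (-0.21, in a range of -0.21 to 0.62 over the left-out libraries); the cause was not tested. With a replicate block in the fit, 3270 genes were higher and 3496 lower. Deviations of same-numbered libraries correlated at -0.00 to 0.03 over 8358 genes and 0 of 3 numbers matched best. With so few libraries, and with Con replicates 2 and 3 so close, this cannot exclude that same-numbered libraries were handled together. Of the genes named by the rule, Itgb7 gained its call in the block (0.34, adjusted p = 0.0425 in edgeR). Genes with few Con counts, such as Cd163, Vsig4 and Sele, are limited by depth.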
